A study of Arabidopsis thaliana with 18 samples.

Results

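DPAM-1, a compound known here only by that code name, was compared with the DMSO solvent control in Arabidopsis thaliana seedlings that had also received salt. The comparison used 6 of the 18 RNA sequencing libraries of the series, 3 from seedlings given DPAM-1 and NaCl and 3 from seedlings given DMSO and NaCl, and covered all 14229 genes of the count table. All seedlings were Col-0, the usual laboratory accession, in liquid MS medium. The DPAM-1 + NaCl group had DPAM-1 at 5 µM, the DMSO + NaCl group 1% DMSO, and both had NaCl at 100 mM. The DPAM-1 and DMSO groups, 3 libraries each, had the same compound or solvent and no NaCl. Coronatine + NaCl, also 3 libraries, had 5 µM coronatine, a bacterial toxin that imitates active jasmonate, a plant hormone, together with NaCl at 100 mM. Compounds went into the medium 4 days after germination, NaCl followed after 16 h, and seedlings were collected 2 h later.

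The labels name no solvent for the DPAM-1 groups, so the compound and its solvent cannot be told apart. They do not say that the 3 libraries of a group came from separate cultures, so the p-values measure the spread between these libraries, which may be technical. The libraries read transcripts of whole seedlings, in which fewer cells of a type and less RNA per cell cannot be told apart. The 6 libraries held between 13691358 and 34202322 counted reads. Every gene in the table had at least 30 reads in each of the 18 libraries, so genes silent in any condition are outside these results.

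Salt reaches a seedling as osmotic stress and as sodium ions. Within minutes to hours it triggers calcium signals, reactive oxygen and a burst of short-lived transcripts, many of which also respond to touch, wounding, cold and pathogen signals. Zinc-finger, WRKY and ERF transcription factors are prominent in this early response. Abscisic acid, the drought hormone, drives a slower set of protective genes, and ion transporters such as SOS1 and NHX1 move sodium out of the cytoplasm. Brassinosteroids, steroid hormones of growth, act on many of the genes that loosen and remodel cell walls.

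Under NaCl, seedlings given DPAM-1 had lower transcript levels of 6 of 20 early stress transcription factors, among them ZAT10 and ZAT12, than seedlings given DMSO. The gene lists were made with earlier results of these data known, so such shares only describe the lists. Single genes such as the wall enzyme gene XTH22 and the ethylene synthesis gene ACS6 were lower too. Seedlings given DPAM-1 had higher levels of a small group that included the copper/zinc superoxide dismutases CSD1 and CSD2, the glutathione transferases GSTF2 and GSTF6, and the kelch repeat gene AT2G44130. Of these, CSD1 and AT2G44130 stayed called whichever library was left out, and CSD2, GSTF2 and GSTF6 did not. Of the 14229 genes, 82 were called at an adjusted p under 0.05 (0.576%), 25 of them higher (0.176%) and 57 lower (0.401%) after DPAM-1. The lower genes moved further: their median log2 fold change was -1.0, and 29 of the 57 were more than 2-fold lower, while the 25 higher genes had a median of 0.58 and 5 were more than 2-fold higher. The median of all genes was 0.002. The 3 DPAM-1 + NaCl values lay entirely above the 3 DMSO + NaCl values in all 25 higher genes and entirely below them in 56 of the 57 lower genes, the exception being XTH23. Over all genes, such separation occurred in 9.16% upward and 8.55% downward.

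**Figure D1:**
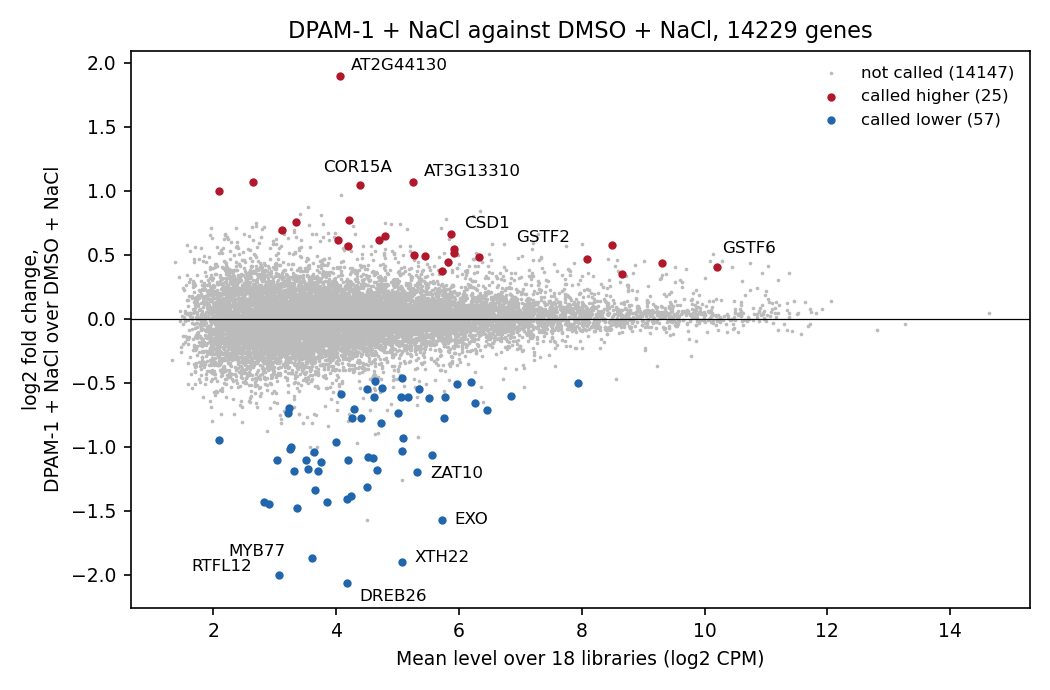
Each point is 1 of 14229 genes, with its mean level over 18 libraries (log2 CPM, a gene's reads relative to the scaled total of its library) on the x axis and its log2 fold change in DPAM-1 + NaCl over DMSO + NaCl on the y axis. The 25 genes called higher (red) mostly lie below 1 on the y axis, while the 57 called lower (blue) reach -2.06 at DREB26.

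How many genes were called depended on the libraries and the model. The count was 35 without DPAM-1 + NaCl replicate 1, 37 without DPAM-1 + NaCl replicate 2 and 144 without DMSO + NaCl replicate 3. It was 47, 23 higher and 24 lower, when only these 6 libraries were fitted, and DESeq2 called 195, 91 higher and 104 lower. Of the 82 genes, 38 were still called with only these 6 libraries fitted and 80 with DESeq2. Without DPAM-1 + NaCl replicate 1 or 2, 34 and 35 of the 82 were still called, and 70 without DMSO + NaCl replicate 3. A core of 24 genes, 5 higher and 19 lower, was called whichever of the 6 libraries was left out. All 82 kept their direction under each of these fits. That was largely set in advance, since all 25 higher and 56 of the 57 lower genes had groups that did not overlap. The 5 higher genes of that core were AT2G44130, AT3G13310, CSD1, MYB4 and BGLU25 (AT3G03640), a beta-glucosidase gene.

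Among early stress transcription factors, 6 of the 20 measured fell, none rose and 14 did not pass, and the median of the list was -0.31. The 6 were ZAT10, ZAT12, SZF1, ERF104, WRKY18 and BT2. Fits that left out 1 library called between 4 and 7 of the list, and the fit to the 6 libraries alone called 4. ZAT10 (AT1G27730), a zinc-finger repressor whose annotated name is salt tolerance zinc finger, had 24.9, 27.6 and 26.9 CPM (reads relative to the scaled library total) in DPAM-1 + NaCl seedlings, against 52.6, 67.9 and 61.3 CPM in DMSO + NaCl seedlings. The groups were far apart: ZAT10 was 2.29-fold lower, a log2 fold change of -1.19 ± 0.13 (SE, n = 3 per group; adjusted p = 4.7e-05, edgeR quasi-likelihood test). ZAT12 (AT5G59820), a related zinc-finger regulator of oxidative and cold responses, had 12.1, 10.09 and 17.4 CPM, against 33.5, 41.5 and 28.5 CPM in DMSO + NaCl seedlings. Its log2 fold change was -1.38 ± 0.18 (adjusted p = 1.6e-04), and the highest DPAM-1 + NaCl library stayed well below the lowest DMSO + NaCl library.

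SZF1 (AT3G55980), a CCCH zinc-finger gene known as salt-inducible, had 14.6, 16.1 and 15.9 CPM in DPAM-1 + NaCl seedlings, against 37.4, 29.0 and 33.4 CPM in DMSO + NaCl seedlings. It was lower by a log2 fold change of -1.10 ± 0.13 (adjusted p = 5.9e-05), with little spread among the DPAM-1 + NaCl libraries. ERF104 (AT5G61600), an ethylene response factor that acts in defence signalling, had 6.02, 6.44 and 5.01 CPM, against 21.5, 16.5 and 9.69 CPM in DMSO + NaCl seedlings (log2 fold change -1.45 ± 0.22, adjusted p = 0.0012). WRKY18 (AT4G31800), a defence regulator, was at -1.07 ± 0.19 (adjusted p = 0.0061), and BT2 (AT3G48360), a BTB and TAZ domain protein gene, at -1.09 ± 0.22 (adjusted p = 0.017). Neither held in every fit. WRKY18 was at -0.91 (adjusted p = 0.087) without DPAM-1 + NaCl replicate 1. BT2 was at -0.58 (adjusted p = 0.109) without DMSO + NaCl replicate 1 and lost its call without any of the DPAM-1 + NaCl libraries too, at -1.11, -1.05 and -1.12 (adjusted p = 0.101, 0.109 and 0.060) without replicates 1, 2 and 3. Among members that did not pass, the immunity regulator WRKY33 (AT2G38470) was at -0.31 ± 0.17 (95% interval -0.65 to 0.04) and its relative WRKY40 (AT1G80840) at -0.62 ± 0.17 (-0.98 to -0.27, adjusted p = 0.11). The groups of WRKY40 did not overlap, and DESeq2 called it lower. DESeq2 called 8 of the list lower and none higher, beside 104 lower and 91 higher over all genes.

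**Figure D2:**
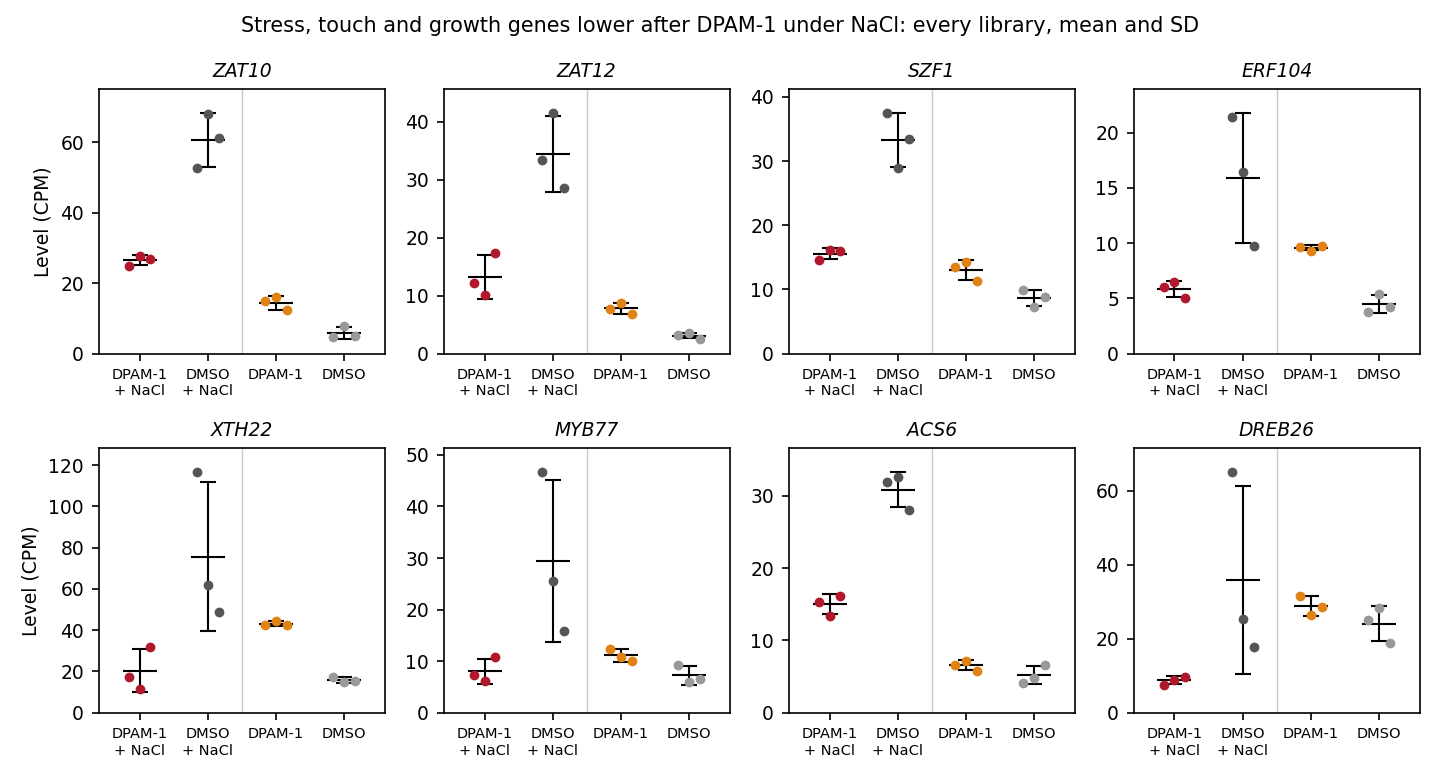
Level (CPM, linear axis from 0) of 8 genes in every library of 4 groups of 3, with the mean (bar) and SD. In all 8 genes the DPAM-1 + NaCl libraries lie below the DMSO + NaCl libraries. In SZF1, ERF104, XTH22, MYB77 and DREB26 DMSO + NaCl replicate 1, the leftmost point of its group, stands highest.

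The 250 bases before the annotated gene start are shown for ZAT10, ZAT12, SZF1 and ERF104, the 4 early stress regulators called lower after DPAM-1 under NaCl and higher after it without NaCl. They were read from the RefSeq TAIR10.1 genome and annotation, on the gene's own strand. Capitals mark the W-box core TTGAC or its reverse complement GTCAA, the letters that WRKY factors are known to recognise. The windows are chr1:9649324-9649573 (minus strand) for ZAT10, chr5:24102564-24102813 (plus strand) for ZAT12, chr3:20775970-20776219 (plus strand) for SZF1 and chr5:24767733-24767982 (minus strand) for ERF104.
ZAT10: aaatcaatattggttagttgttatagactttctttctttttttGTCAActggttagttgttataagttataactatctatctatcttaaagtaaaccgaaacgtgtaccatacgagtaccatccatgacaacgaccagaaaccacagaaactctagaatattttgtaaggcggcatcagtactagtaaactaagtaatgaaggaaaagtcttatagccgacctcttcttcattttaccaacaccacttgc
ZAT12: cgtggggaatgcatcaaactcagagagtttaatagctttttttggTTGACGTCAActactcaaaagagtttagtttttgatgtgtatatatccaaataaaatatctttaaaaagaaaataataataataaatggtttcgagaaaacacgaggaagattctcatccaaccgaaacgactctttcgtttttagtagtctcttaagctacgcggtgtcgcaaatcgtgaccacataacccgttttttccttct
SZF1: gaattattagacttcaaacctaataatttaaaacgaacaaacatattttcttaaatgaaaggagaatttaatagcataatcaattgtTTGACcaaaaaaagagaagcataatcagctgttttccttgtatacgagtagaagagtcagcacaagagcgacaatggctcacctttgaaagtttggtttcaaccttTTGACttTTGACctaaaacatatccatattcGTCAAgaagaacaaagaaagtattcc
ERF104: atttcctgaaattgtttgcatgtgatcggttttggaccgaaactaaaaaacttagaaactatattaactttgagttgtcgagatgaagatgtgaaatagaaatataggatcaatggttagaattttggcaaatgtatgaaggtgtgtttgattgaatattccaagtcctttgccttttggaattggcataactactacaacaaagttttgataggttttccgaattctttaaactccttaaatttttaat
The core occurred 4 times before SZF1, 2 times before ZAT12 in adjacent inverted copies, 1 time before ZAT10 and not before ERF104. On either strand it was present in 32 of the 57 lower genes (56.1%), in 13 of the 25 higher genes (52.0%) and in 44.1% of the 14103 nuclear genes tested that had such a window. Among the 10 genes called higher without NaCl and lower under it, 9 held it (90%). Other motifs searched on both strands were the abscisic acid response core ACGTG, the G-box CACGTG, the brassinosteroid response element CGTGNG, the E-box CANNTG, the GCC-box GCCGCC and TATAAA. The G-box is a case of the E-box and holds the core ACGTG, and the brassinosteroid element can overlap both. The core ACGTG was present in 26.3% of lower, 28.0% of higher and 24.0% of all genes. The brassinosteroid element was present in 22.8%, 20% and 12.7%, the G-box in 7.02%, 12% and 7.59%, the E-box in 45.6%, 56.0% and 56.2%, the GCC-box in 3.51%, 0% and 1.94%, and TATAAA in 49.1%, 56.0% and 46.0%, in the same order. These shares describe letters in a window and were not tested.

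XTH22 was among the called genes with the lowest log2 fold changes, but most touch and wall genes did not pass. In the touch and calcium list, 2 of 14 measured genes fell and 12 did not pass (median 0.03). The 2 were XTH22 and CML38. In the brassinosteroid-induced list, 2 of 25 fell and 23 did not pass (median -0.10), and the 2, XTH22 and XTH23, encode related wall enzymes. EXO, a growth gene that brassinosteroids induce, was called lower as well but was not in the list. Of 12 cellulose and wall growth genes edgeR called 0 (4 at an unadjusted p under 0.05, and 0 by DESeq2), with a median of -0.04. XTH22 (AT5G57560), a xyloglucan-modifying enzyme gene that is in both lists and is also known as TCH4, had 17.3, 11.6 and 31.9 CPM in DPAM-1 + NaCl seedlings, against 116, 61.8 and 48.6 CPM in DMSO + NaCl seedlings. It was 3.74-fold lower (log2 fold change -1.90 ± 0.27, adjusted p = 6.8e-04), and between -2.37 and -1.44 when 1 library was left out. XTH23 (AT4G25810) had 8.25, 5.81 and 16.0 CPM, against 28.0, 33.8 and 14.4 CPM in DMSO + NaCl seedlings. Its groups overlapped, and its call at -1.34 ± 0.28 (adjusted p = 0.020) was lost without DMSO + NaCl replicate 1 or 2 or DPAM-1 + NaCl replicate 1 or 2, with values from -1.26 to -1.09 (adjusted p up to 0.159). CML38 (AT1G76650), a calmodulin-like gene, had 9.56, 9.74 and 11.2 CPM, against 12.9, 23.3 and 22.6 CPM in DMSO + NaCl seedlings. Its call at -0.94 ± 0.21 (adjusted p = 0.033) was lost in every fit that left out 1 library except that without DMSO + NaCl replicate 1, with values from -1.01 to -0.79 (adjusted p up to 0.177). Both also missed the threshold with only the 6 libraries fitted (adjusted p = 0.132 for XTH23 and 0.084 for CML38), where each list had 1 lower gene. The touch list had 1 lower gene instead of 2 without DMSO + NaCl replicate 2 or any DPAM-1 + NaCl library. The brassinosteroid-induced list had 1 without DMSO + NaCl replicate 1 or DPAM-1 + NaCl replicate 1 or 2, and 4 without DMSO + NaCl replicate 3.

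TCH3 (AT2G41100), a calmodulin-like touch gene, had 77.9, 85.2 and 60.6 CPM in DPAM-1 + NaCl seedlings, against 71.3, 101 and 116 CPM in DMSO + NaCl seedlings. The groups overlapped and the difference did not pass (-0.36 ± 0.18, 95% interval -0.73 to 0.01). The related wall enzyme gene XTH24 (AT4G30270) did not pass either (-0.65 ± 0.20, adjusted p = 0.17), with 36.5, 39.3 and 29.9 CPM, against 75.5, 27.9 and 61.4 CPM in DMSO + NaCl seedlings. Without DMSO + NaCl replicate 2, its lowest DMSO + NaCl library, XTH24 was at -0.96 (adjusted p = 4.8e-05). EXPA1 (AT1G69530), an expansin that loosens walls, was at -0.26 ± 0.10 (95% interval -0.47 to -0.06, adjusted p = 0.32), and the auxin-inducible repressor gene IAA19 (AT3G15540) at -0.46 ± 0.20 (-0.86 to -0.06, adjusted p = 0.41).

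The called genes with the lowest log2 fold changes were DREB26, RTFL12, XTH22, MYB77 and EXO, and in all 5 the library DMSO + NaCl replicate 1 stood highest. DREB26 (AT1G21910), an AP2-type transcription factor gene, had 7.60, 8.97 and 9.70 CPM in DPAM-1 + NaCl seedlings, against 65.0, 25.3 and 17.7 CPM in DMSO + NaCl seedlings. It was at -2.06 ± 0.32 (adjusted p = 0.0016) and at -1.30 (adjusted p = 0.0043) without that library. RTFL12 (AT4G13395), of the small ROTUNDIFOLIA-like peptides that act on cell proliferation, had 4.37, 3.99 and 4.06 CPM, against 31.5, 9.68 and 8.06 CPM in DMSO + NaCl seedlings. It was at -2.0 ± 0.35 (adjusted p = 0.0054) and at -1.09 (adjusted p = 0.017) without it. MYB77 (AT3G50060), a MYB factor of auxin and stress responses, had 7.33, 6.09 and 10.8 CPM, against 46.6, 25.5 and 15.9 CPM in DMSO + NaCl seedlings (-1.87 ± 0.28, adjusted p = 0.0012). EXO (AT4G08950), a growth gene that brassinosteroids induce, had 27.3, 30.6 and 41.5 CPM, against 181, 52.4 and 60.1 CPM in DMSO + NaCl seedlings. It was at -1.57 ± 0.29 (adjusted p = 0.0077), at -0.77 (adjusted p = 0.017) without DMSO + NaCl replicate 1, and lost its call without DPAM-1 + NaCl replicate 1 (-1.45, adjusted p = 0.089) or 2 (-1.52, adjusted p = 0.059). In each of these genes the groups did not overlap. When only these 6 libraries were fitted, DREB26, RTFL12 and EXO missed the threshold (adjusted p = 0.057, 0.094 and 0.121).

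Single genes of other kinds were lower as well. ACS6 (AT4G11280), which makes the ethylene precursor under stress, had 15.4, 13.4 and 16.2 CPM in DPAM-1 + NaCl seedlings, against 31.9, 32.6 and 28.1 CPM in DMSO + NaCl seedlings (-1.04 ± 0.15, adjusted p = 0.0010). It was the only 1 of 14 ethylene genes called, and that list had a median of -0.14. AT1G07135, a glycine-rich protein gene, had 20.6, 26.7 and 18.4 CPM, against 54.1, 43.3 and 65.7 CPM in DMSO + NaCl seedlings (-1.32 ± 0.15, adjusted p = 5.7e-05). DIC2 (AT4G24570), a mitochondrial dicarboxylate carrier gene, had 9.12, 10.6 and 10.5 CPM, against 24.3, 18.8 and 24.9 CPM in DMSO + NaCl seedlings (-1.18 ± 0.15, adjusted p = 1.4e-04). AT1G76600, annotated as a poly polymerase, had 19.1, 17.1 and 24.6 CPM, against 69.6, 54.1 and 37.3 CPM in DMSO + NaCl seedlings (-1.41 ± 0.18, adjusted p = 1.6e-04). These 4 genes stayed called in every fit that left out 1 library.

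AT4G27280, annotated as an EF-hand calcium-binding protein gene, was at -1.19 ± 0.20 (adjusted p = 0.0035) and also kept its call in every such fit, but not when only the 6 libraries were fitted (adjusted p = 0.055). HSPRO2 (AT2G40000), a gene of basal defence, was at -1.48 ± 0.27 (adjusted p = 0.0065), and at -1.25 (adjusted p = 0.059) without DPAM-1 + NaCl replicate 2. MAPKKK14 (AT2G30040), a mitogen-activated protein kinase kinase kinase gene, was at -1.43 ± 0.24 (adjusted p = 0.0038). It was at -0.92 (adjusted p = 0.017) without DMSO + NaCl replicate 1 and at -1.29 (adjusted p = 0.053) without DPAM-1 + NaCl replicate 1. BAP1 (AT3G61190), an inhibitor of cell death, was at -1.43 ± 0.31 (adjusted p = 0.025). Its call was lost without DMSO + NaCl replicate 2 (-0.95, adjusted p = 0.174), DPAM-1 + NaCl replicate 1 (-1.22, adjusted p = 0.204) or DPAM-1 + NaCl replicate 2 (-1.31, adjusted p = 0.164). With only the 6 libraries fitted, MAPKKK14 and BAP1 missed the threshold (adjusted p = 0.080 and 0.138).

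A pair of jasmonate pathway genes fell by less. MYC2 (AT1G32640), the bHLH factor that directs many jasmonate responses, had 22.5, 24.0 and 24.9 CPM in DPAM-1 + NaCl seedlings, against 37.2, 48.2 and 31.7 CPM in DMSO + NaCl seedlings (-0.71 ± 0.14, adjusted p = 0.012). JAZ1 (AT1G19180), a repressor of MYC2, had 73.5, 75.3 and 64.9 CPM, against 114, 95.7 and 93.3 CPM in DMSO + NaCl seedlings (-0.51 ± 0.11, adjusted p = 0.021). They were the only called members among 19 jasmonate synthesis, breakdown and output genes (median 0.18) and 9 JAZ repressor genes (median 0.01). The call of MYC2 was lost without DMSO + NaCl replicate 2 or DPAM-1 + NaCl replicate 1 or 2, at -0.54, -0.67 and -0.72 (adjusted p = 0.075, 0.102 and 0.059). That of JAZ1 was lost without DMSO + NaCl replicate 1 or DPAM-1 + NaCl replicate 1, 2 or 3, at -0.41, -0.53, -0.55 and -0.44 (adjusted p = 0.141, 0.090, 0.059 and 0.152). MYC2 also missed the threshold with only the 6 libraries fitted (adjusted p = 0.057). The jasmonate markers VSP2 (AT5G24770), LOX2 (AT3G45140) and JAZ10 (AT5G13220) were at 0.36 ± 0.20, 0.18 ± 0.15 and -0.06 ± 0.17, with 95% intervals of -0.05 to 0.77, -0.13 to 0.50 and -0.42 to 0.29.

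Another set of lower genes was lower after DPAM-1 both under and without NaCl: AT5G46890, AT2G33830, AT3G59370, AT1G34510, AT4G26010, AGP3 and PRP3. AT5G46890, annotated as a lipid-transfer and seed storage type protein gene, had 12.9, 14.5 and 12.6 CPM in DPAM-1 + NaCl seedlings, against 28.0, 28.7 and 28.1 CPM in DMSO + NaCl seedlings. That was a log2 fold change of -1.08 ± 0.14 (adjusted p = 1.6e-04), beside -0.88 ± 0.13 (adjusted p = 8.1e-04) without NaCl. The groups did not overlap in either comparison. PRP3 (AT3G62680), a proline-rich wall protein gene of root hairs, had 49.1, 47.9 and 52.8 CPM, against 74.6, 57.8 and 78.4 CPM in DMSO + NaCl seedlings. It was at -0.50 ± 0.10 (adjusted p = 0.016) under NaCl and at -0.48 ± 0.10 (adjusted p = 0.013) without it. Under NaCl its call was lost without DMSO + NaCl replicate 1 or 3 or DPAM-1 + NaCl replicate 1 or 2, with values from -0.48 to -0.41 (adjusted p up to 0.107), and with only the 6 libraries fitted (0.070). The others, described after their values were seen, were the arabinogalactan protein gene AGP3 (AT4G40090) at -0.61 ± 0.12, the peroxidase genes AT4G26010 at -0.61 ± 0.12 and AT1G34510 at -0.70 ± 0.13, AT3G59370 at -0.74 ± 0.14 and AT2G33830 at -1.19 ± 0.24. All 5 lost their call without DPAM-1 + NaCl replicate 2 (adjusted p between 0.054 and 0.115), and all but AT1G34510 without DMSO + NaCl replicate 1 as well (up to 0.145), where AT2G33830 was at -0.79. AGP3, AT4G26010 and AT3G59370 also lost it without DPAM-1 + NaCl replicate 1, and AT4G26010 and AT2G33830 without DPAM-1 + NaCl replicate 3.

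PRP3 is also 1 of the root hair markers. The summed level of the 5 root hair markers measured (EXPA7, EXPA18, PRP3, LRX1 and RBOHC) was between 87.0 and 91.9 CPM in DPAM-1 + NaCl libraries and between 96.5 and 128 CPM in DMSO + NaCl libraries. Without NaCl it was between 83.8 and 99.6 CPM in DPAM-1 libraries and between 105 and 122 CPM in DMSO libraries. Of the 5, PRP3 was called and the others were between -0.48 and 0.28. Without PRP3 the sum of the other 4 overlapped, at 38.3 to 39.2 CPM in DPAM-1 + NaCl libraries and 38.7 to 49.2 CPM in DMSO + NaCl libraries. The part of root hair cells in the result was not tested. The sums of 6 endodermis markers did not overlap, at 115 to 122 CPM in DPAM-1 + NaCl libraries and 92.9 to 101 CPM in DMSO + NaCl libraries. Without NaCl these sums did not overlap either, at 115.6 to 118.2 CPM in DPAM-1 libraries and 79.4 to 108.5 CPM in DMSO libraries. Under NaCl 5 of these 6 markers were above 0, with a median of 0.34, and edgeR called 0 (4 at an unadjusted p under 0.05, and 0 by DESeq2). MYB36 (AT5G57620), a regulator of endodermis differentiation named here after its value was seen, was at 0.65 ± 0.19 (adjusted p = 0.15). The part of endodermis cells in the results was not tested. The sums of the 2 guard cell markers, the 3 phloem companion cell markers and the 4 mesophyll markers overlapped between the groups.

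The higher genes were led by AT2G44130, annotated as a galactose oxidase/kelch repeat protein gene. It had 24.4, 23.3 and 18.2 CPM in DPAM-1 + NaCl seedlings, against 5.66, 6.17 and 5.97 CPM in DMSO + NaCl seedlings. This 3.72-fold difference (log2 fold change 1.90 ± 0.13, adjusted p = 1.2e-08) had the smallest p of all genes in the comparison. AT3G13310, annotated as a DnaJ-domain chaperone gene, had 57.9, 48.0 and 47.2 CPM, against 28.7, 23.8 and 20.3 CPM in DMSO + NaCl seedlings (1.07 ± 0.13, adjusted p = 5.9e-05). MYB4 (AT4G38620), a repressor of phenylpropanoid genes, had 40.2, 35.8 and 39.1 CPM, against 23.9, 25.4 and 24.2 CPM in DMSO + NaCl seedlings (0.65 ± 0.11, adjusted p = 0.0033). In all 3 genes the groups were well apart.

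Of 16 antioxidant and redox genes, 2 rose, none fell and 14 did not pass (median 0.04), and the 2 were the copper/zinc superoxide dismutase genes, whose products turn superoxide into hydrogen peroxide. CSD1 (AT1G08830), the cytosolic enzyme, had 57.0, 53.5 and 55.5 CPM in DPAM-1 + NaCl seedlings, against 34.9, 35.2 and 34.8 CPM in DMSO + NaCl seedlings (0.66 ± 0.12, adjusted p = 0.0056). CSD2 (AT2G28190), the plastid enzyme, had 46.3, 49.0 and 48.1 CPM, against 32.5, 35 and 34.6 CPM in DMSO + NaCl seedlings (0.49 ± 0.10, adjusted p = 0.021). Both differences exceeded the spread within the groups. CSD2 nevertheless lost its call without DMSO + NaCl replicate 1 or any DPAM-1 + NaCl library, at 0.46 and at 0.51, 0.47 and 0.49 without DPAM-1 + NaCl replicates 1, 2 and 3 (adjusted p = 0.099, 0.081, 0.107 and 0.075), where the list had 1 called gene instead of 2. Catalase, ascorbate peroxidase and iron superoxide dismutase genes of the list did not pass: CAT2 was at -0.01, APX1 at 0.14 and FSD1 at -0.12.

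Of 30 detoxification genes, 2 rose, none fell and 28 did not pass (median 0.04). Both encode glutathione transferases, which attach glutathione to foreign and reactive compounds. GSTF2 (AT4G02520) had 446, 449 and 413 CPM in DPAM-1 + NaCl seedlings, against 339, 315 and 292 CPM in DMSO + NaCl seedlings (0.47 ± 0.08, adjusted p = 0.0061). GSTF6 (AT1G02930) had 789, 724 and 714 CPM, against 631, 506 and 548 CPM in DMSO + NaCl seedlings (0.40 ± 0.09, adjusted p = 0.029). The groups did not overlap in either gene. Reads of GSTF6 and its near-identical neighbour GSTF7 (AT1G02920), which was at 0.24 ± 0.12 and did not pass, cannot be assigned with certainty. GSTF2 lost its call without DPAM-1 + NaCl replicate 1 or 2, at 0.45 and 0.44 (adjusted p = 0.050 and 0.052). GSTF6 kept it only without DMSO + NaCl replicate 1, and was otherwise between 0.33 and 0.43 (adjusted p up to 0.179). The list thus had no called gene without DPAM-1 + NaCl replicate 1 or 2, and 1 without DPAM-1 + NaCl replicate 3 or DMSO + NaCl replicate 2 or 3.

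COR15A (AT2G42540), which encodes a chloroplast protein that protects membranes from freezing and drought, was the called member among 38 abscisic acid and osmotic stress genes (median 0.06). It had 32.9, 23.6 and 33.7 CPM in DPAM-1 + NaCl seedlings, against 15.9, 10.6 and 17.1 CPM in DMSO + NaCl seedlings. The groups did not overlap (1.05 ± 0.19, adjusted p = 0.0060), and without DPAM-1 + NaCl replicate 1 the value was 0.98 (adjusted p = 0.053). RNS1 (AT2G02990), a ribonuclease gene of wounding and phosphate starvation, had 41.1, 33.8 and 37.2 CPM, against 21.8, 19.1 and 25 CPM in DMSO + NaCl seedlings (0.77 ± 0.14, adjusted p = 0.0077), and was at 0.69 (adjusted p = 0.087) without the same library. NLM1 (AT4G19030), an aquaporin-family channel gene, had 32.5, 31.9 and 38.4 CPM, against 23.1, 24.1 and 19.9 CPM in DMSO + NaCl seedlings (0.62 ± 0.12, adjusted p = 0.010), and was at 0.53 (adjusted p = 0.077) without DPAM-1 + NaCl replicate 3. The small heat shock protein gene HSP18.2 (AT5G59720) at 1.06 ± 0.24, AT3G07580, an uncharacterised gene, at 1.0 ± 0.20, the chitinase family gene AT1G56680 at 0.76 ± 0.17, the phosphatidylinositol synthase gene PIS2 (AT4G38570) at 0.69 ± 0.14 and the berberine bridge enzyme family gene AT1G30760 at 0.61 ± 0.14 were called too. Each of these 5 lost its call in 4 or 5 of the 6 fits that left out 1 library, with adjusted p up to 0.295 (HSP18.2 without DPAM-1 + NaCl replicate 1, at 0.79). The exceptions were the fits without DMSO + NaCl replicate 2 for HSP18.2, without DMSO + NaCl replicate 3 or DPAM-1 + NaCl replicate 1 for AT3G07580, without DMSO + NaCl replicate 1 or DPAM-1 + NaCl replicate 3 for AT1G56680, without DMSO + NaCl replicate 3 for PIS2 and without DPAM-1 + NaCl replicate 2 for AT1G30760. All 5 also missed the threshold with only the 6 libraries fitted (adjusted p between 0.052 and 0.197).

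**Figure D3:**
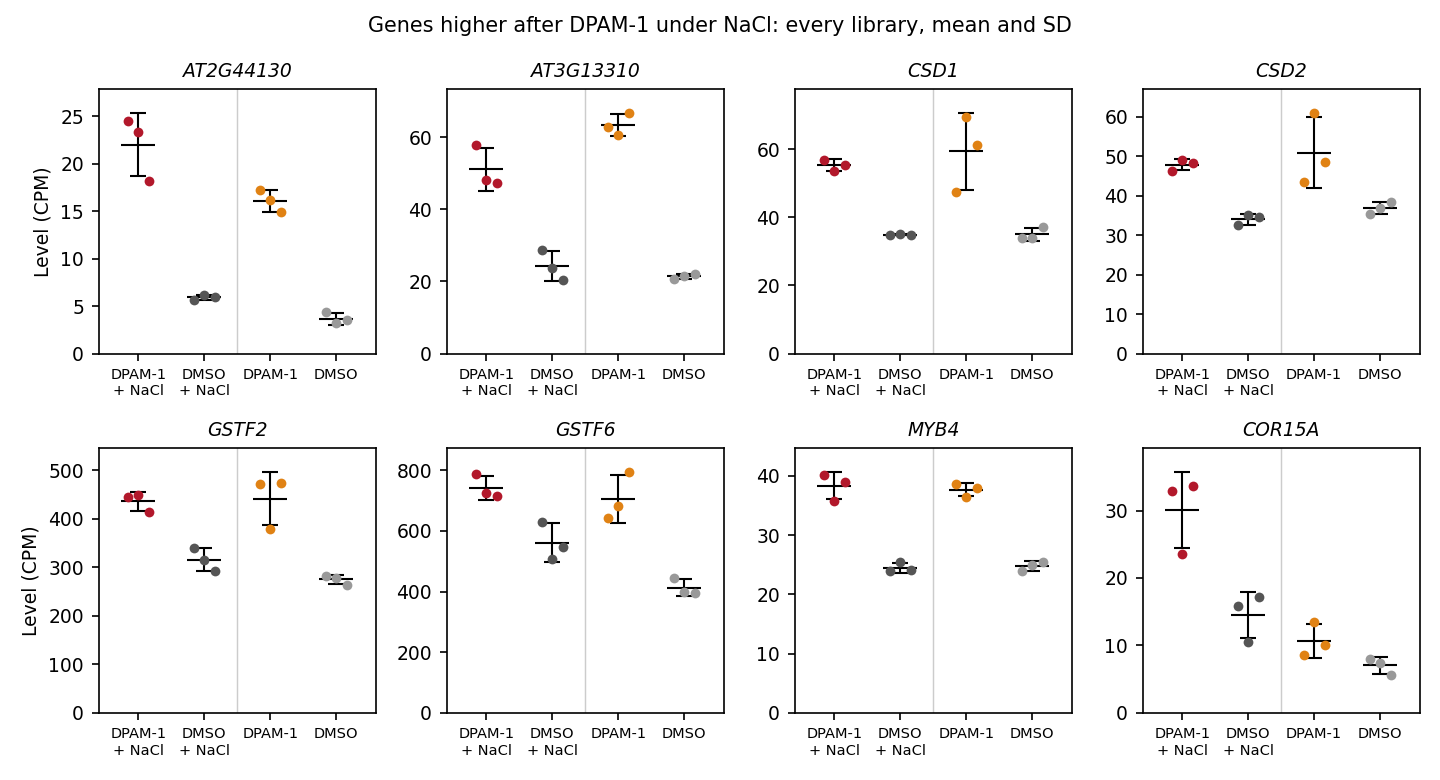
Level (CPM, linear axis from 0) of 8 genes in every library of 4 groups of 3, with the mean (bar) and SD. In all 8 the DPAM-1 + NaCl libraries lie above the DMSO + NaCl libraries, with the widest gap in AT2G44130 (22.0 against 5.93 CPM on average).

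The same compound was compared with DMSO in other libraries without NaCl, where 145 genes were called (1.02%), 114 higher (0.801%) and 31 lower (0.218%). The comparisons share no library. For the groups without NaCl no harvest time is named, so a difference in age or handling cannot be told apart from NaCl. Across the 14229 genes the log2 fold changes under and without NaCl had a Pearson correlation of 0.263, given as a description, since genes share libraries and one fit. Of the 82 genes called under NaCl, 31 were also called without it, 37.8% of the 82 and 21.4% of the 145. They fell into 14 higher in both, 7 lower in both and 10 lower under NaCl but higher without it. The opposite reversal, higher under NaCl and lower without it, was found in 0 genes.

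**Figure D4:**
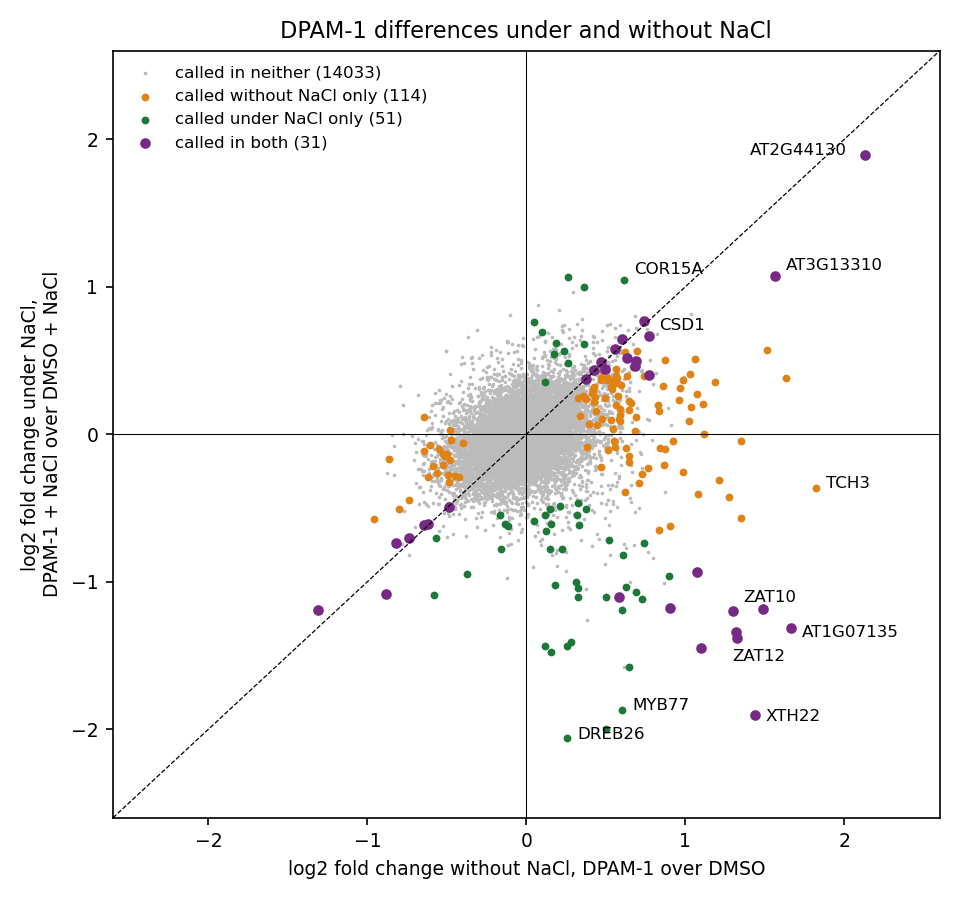
Each point is 1 of 14229 genes, with the log2 fold change of DPAM-1 over DMSO without NaCl on the x axis and that of DPAM-1 + NaCl over DMSO + NaCl on the y axis; the dashed line marks equal values. Of the 31 genes called in both (purple), 21 share a direction and 10 lie at lower right, among them ZAT10, ZAT12 and XTH22.

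The 10 genes with opposite calls were ZAT10, ZAT12, SZF1, ERF104, XTH22, XTH23, CML38, DIC2, AT1G07135 and AT4G27280. ZAT10 had 14.8, 16.1 and 12.3 CPM in DPAM-1 seedlings, against 4.72, 7.84 and 4.87 CPM in DMSO seedlings, so DPAM-1 seedlings were higher without NaCl (log2 fold change 1.3 ± 0.16, adjusted p = 8.8e-05). The difference between the comparisons, tested as the interaction of DPAM-1 and NaCl, was -2.49 ± 0.21 (adjusted p = 2.1e-07). AT1G07135 had 21.9, 23.8 and 19.3 CPM in DPAM-1 seedlings, against 6.74, 7.99 and 5.69 CPM in DMSO seedlings (1.66 ± 0.17), and its level in DPAM-1 + NaCl seedlings, 18.4 to 26.7 CPM, lay in the same range as in DPAM-1 seedlings. Its interaction was -2.98 ± 0.23 (adjusted p = 7.6e-08). XTH22 had 42.4, 44.6 and 42.3 CPM in DPAM-1 seedlings, against 17.2, 14.8 and 15.6 CPM in DMSO seedlings (1.44 ± 0.28), and an interaction of -3.35 ± 0.39 (adjusted p = 3.4e-05). In all 3 genes the order of the groups was the reverse of that under NaCl.

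Over all genes, the interaction was called in 71 (0.499%), 70 of them lower (0.492%) and 1 higher (0.00703%), where lower means that the DPAM-1 difference under NaCl lay below that without NaCl. Fits that left out 1 library called between 54 and 97. TCH3, not called under NaCl, had 117, 107 and 108 CPM in DPAM-1 seedlings, against 38.1, 32.4 and 23.3 CPM in DMSO seedlings (1.82 ± 0.19, adjusted p = 5.7e-06), and an interaction of -2.18 ± 0.26 (adjusted p = 3.4e-05). Of the early stress transcription factors, 6 of 20 were called higher without NaCl (median 0.39) and 7 had a called lower interaction (median -0.58). WRKY33 and WRKY40 were among those with a called interaction, at -1.52 ± 0.25 (adjusted p = 0.0026) and -1.53 ± 0.28 (adjusted p = 0.0054).

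Genes called higher in both comparisons could not show such a reversal, since they were chosen by those calls. AT2G44130 was at 1.90 ± 0.13 under NaCl and 2.13 ± 0.14 without it, with an interaction of -0.23 ± 0.20 (95% interval -0.64 to 0.17). AT3G13310 was at 1.07 ± 0.13 and 1.57 ± 0.13, CSD1 at 0.66 ± 0.12 and 0.77 ± 0.12, MYB4 at 0.65 ± 0.11 and 0.60 ± 0.11, GSTF2 at 0.47 ± 0.08 and 0.68 ± 0.08, and RNS1 at 0.77 ± 0.14 and 0.74 ± 0.15. GSTF6, also called in both, was at 0.40 ± 0.09 and 0.77 ± 0.09. None of these interactions was called. Those of AT3G13310 and GSTF6 were -0.50 ± 0.18 and -0.37 ± 0.12, with 95% intervals of -0.87 to -0.13 and -0.63 to -0.11. Their adjusted p was 0.58 and 0.45 by the edgeR interaction test. For CSD1, MYB4, GSTF2 and RNS1 the intervals included no difference. COR15A was at 1.05 ± 0.19 under NaCl and 0.61 ± 0.21 without it (adjusted p = 0.19), and its interaction, 0.43 ± 0.28, was not called.

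Other lists had few or no called genes under NaCl. Of 17 brassinosteroid and sterol synthesis and breakdown genes, edgeR called 0 (3 at an unadjusted p under 0.05, and 0 by DESeq2), with a median of 0.02. CPD (AT5G05690), a P450 enzyme gene of brassinosteroid synthesis that the hormone represses, had 32.1, 31.5 and 32.8 CPM in DPAM-1 + NaCl seedlings, against 29.2, 31.6 and 35.3 CPM in DMSO + NaCl seedlings, and the 95% interval of its log2 fold change was -0.21 to 0.22. DWF4 (AT3G50660), another such enzyme gene, was at -0.14 ± 0.16 (-0.47 to 0.18). Of 19 brassinosteroid signalling genes edgeR called 0 (1 unadjusted, 0 by DESeq2), with a median of -0.03. Of 17 sodium, potassium and proton transport genes it called 0 (1 unadjusted, 0 by DESeq2), with a median of -0.04. SOS1 (AT2G01980), the plasma membrane sodium exporter, had 7.77, 7.99 and 9.57 CPM, against 8.55, 6.45 and 8.65 CPM in DMSO + NaCl seedlings (95% interval -0.29 to 0.46). NHX1 (AT5G27150), a vacuolar sodium/proton exchanger, had 27.2, 26.6 and 25.4 CPM, against 27.1, 26.5 and 28.1 CPM in DMSO + NaCl seedlings (-0.24 to 0.15). For CPD, SOS1 and NHX1 the groups overlapped, and changes of 2-fold lie outside the intervals.

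RD29A (AT5G52310), a drought- and salt-induced protective gene, had 203, 133 and 172 CPM in DPAM-1 + NaCl seedlings, against 109, 86.9 and 202 CPM in DMSO + NaCl seedlings, overlapping groups with a 95% interval of -0.06 to 0.76. Without DMSO + NaCl replicate 3, the highest library of its group, RD29A was at 0.79 (adjusted p = 0.0061). P5CS1 (AT2G39800), which makes the osmolyte proline, had 34.0, 24.7 and 34.0 CPM, against 25.9, 21.5 and 44.4 CPM in DMSO + NaCl seedlings (-0.48 to 0.52). Of 19 flavonoid and anthocyanin genes edgeR called 0 (9 unadjusted, 3 by DESeq2), 16 were above 0 and the median was 0.27. Chalcone synthase, CHS (AT5G13930), was at 0.29 ± 0.09 (95% interval 0.10 to 0.49, adjusted p = 0.20). Of 17 glucosinolate genes edgeR called 0 (8 unadjusted, 1 by DESeq2), with a median of 0.20, and of 28 photosynthesis genes 0 (2 and 0) with 0.03. Of 9 circadian clock genes it called 0 (5 unadjusted, 2 lower by DESeq2), with a median of -0.26. All 9 clock genes were below 0, beside 7032 of all 14229 genes. Without NaCl 8 of the 9 were below 0 and 0 were called.

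**Figure D5:**
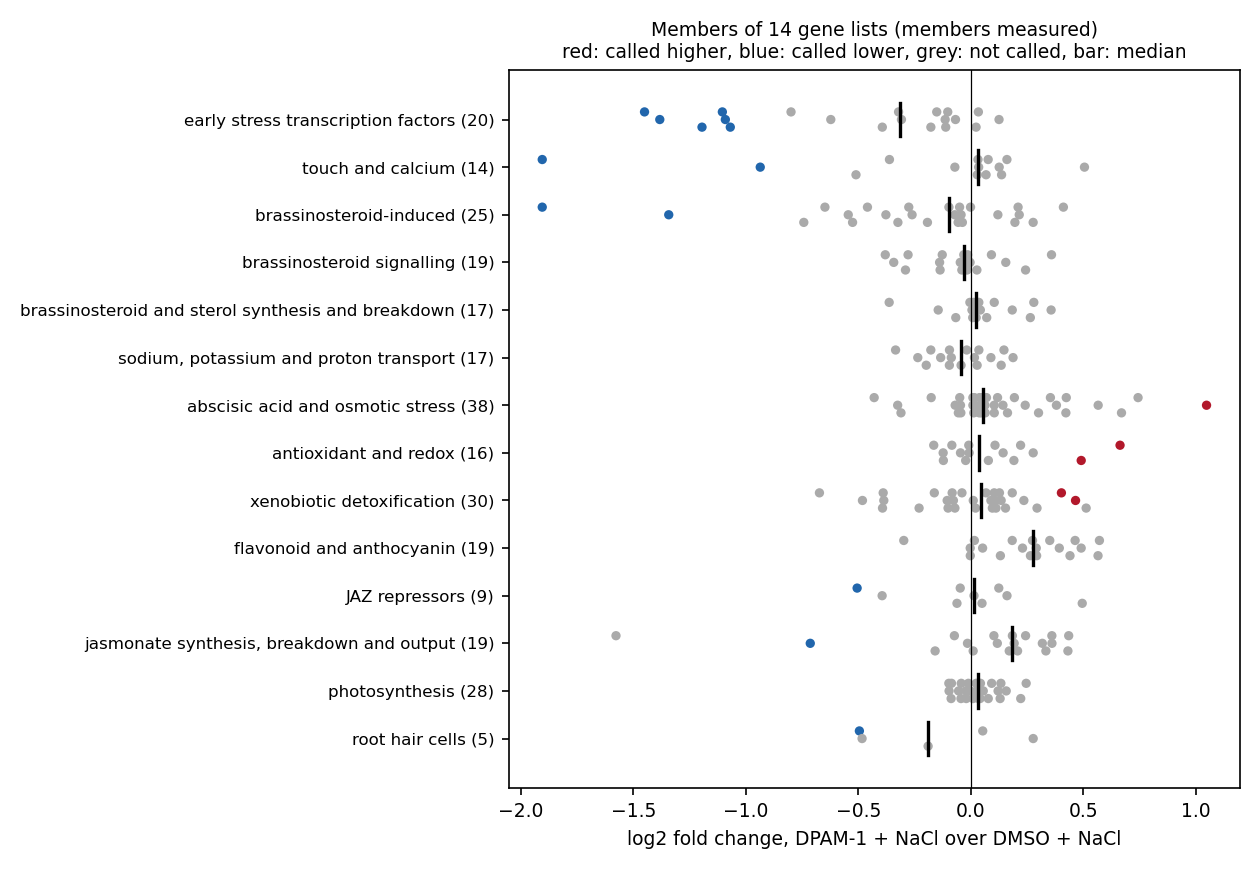
Log2 fold change in DPAM-1 + NaCl over DMSO + NaCl (x axis) of the measured members of 14 gene lists, 1 point per gene, with the number of members in brackets and the median as a black bar. Blue points, called lower, are most frequent in the early stress list (6 of 20), and red points, called higher, appear in the abscisic acid, antioxidant and detoxification lists.

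Values for NaCl against no NaCl in DMSO, and for coronatine + NaCl against DMSO + NaCl, share the DMSO + NaCl libraries with the DPAM-1 comparison, so they are set side by side and not correlated. NaCl in DMSO, with 17.7% of all genes called, gave log2 fold changes of 3.38 for ZAT10, 3.47 for ZAT12, 1.95 for SZF1, 2.26 for XTH22 and 2.57 for ACS6, beside the DPAM-1 values of -1.19, -1.38, -1.10, -1.90 and -1.04. For these genes the mean in DPAM-1 + NaCl seedlings still lay above that in DMSO seedlings, such as 26.5 ± 1.42 CPM (SD, n = 3) for ZAT10, against 5.81 ± 1.76 CPM (SD, n = 3) in DMSO. For XTH22 these groups overlapped, at 17.3, 11.6 and 31.9 CPM in DPAM-1 + NaCl seedlings, against 17.2, 14.8 and 15.6 CPM in DMSO seedlings. DREB26 was at 0.59 with NaCl in DMSO, which did not pass, beside -2.06. MYB4 was at -0.02 with NaCl in DMSO and did not pass, beside 0.65.

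With coronatine at the same dose, and 47.8% of all genes called, the values were 0.69 for ZAT10, 0.13 for ZAT12, 2.37 for CML38, 2.65 for MYC2 and 2.70 for JAZ1, where the DPAM-1 values were -1.19, -1.38, -0.94, -0.71 and -0.51. For XTH22, ERF104, MYB77 and DREB26 coronatine gave -1.53, -1.85, -1.89 and -3.22, beside -1.90, -1.45, -1.87 and -2.06 with DPAM-1. AT2G44130 had 36.0, 41.1 and 32.7 CPM in coronatine + NaCl seedlings, a log2 fold change of 2.63 over DMSO + NaCl, beside 1.90 with DPAM-1. GSTF2 was at -1.86 with coronatine and 0.47 with DPAM-1, and MYB4 at -0.48 and 0.65. GSTF6 was at 2.25 with coronatine and 0.40 with DPAM-1, and CSD1 at 1.51 and 0.66. The differences between the compounds were not tested.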

How the data were processed

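Libraries were made by Lasy-Seq v1.1, a multiplexed 3′ RNA sequencing protocol, per the labels' protocols. The submitters' processing notes name bcl2fastq, Trimmomatic, HISAT2, featureCounts, DESeq2 and the TAIR10 build; versions, settings and strand use are not given in the sources used here, so reads of overlapping or antisense genes may not be separable. The authors deposited a table of raw counts per gene, used for every result, and a second table in the unit signal, in which each library's counts had been divided by a single factor (checked on the values); it was not used further.

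Counts were tested in R 4.3.3 with edgeR 4.0.16: TMM scaling (factors 0.847 to 1.13), 1 quasi-likelihood fit with a mean per group over all 18 libraries, two-sided tests, and Benjamini-Hochberg adjustment over 14229 genes, called under 0.05. The expression filter removed 0 genes. Library totals over the 18 were 13638981 to 37279056; without molecular identifiers reads are not independent molecules. SE is the size of the log2 fold change divided by the square root of F. CPM uses the TMM-scaled totals. The test was tried on simulated counts. Replicate numbers did not pair the DPAM-1 + NaCl and DMSO + NaCl libraries (sensitivity part). Pairing with the coronatine groups, which are in the same fit, was not examined.

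Names came from the RefSeq TAIR10.1 annotation (14105 of 14229 codes, 6686 with a symbol). Lists (30, with 419 genes in the table) describe counts and medians only; the list members, lists and rules were chosen with earlier results of these data known. Genes were named by rule: the 12 highest and 12 lowest called genes with mean log2 CPM of at least 2 and groups that do not overlap, up to 4 members per list with a called gene (2 in the other direction), fixed markers, the 12 of smallest p called both under and without NaCl, and the 8 of smallest interaction p. 1 listed endodermis gene is not reported here, so endodermis sums and counts are over the other 6. Markers EXPA8, HKT1, RAB18, NCED3 and UGT73C6 were not analysed here. WRKY18, BT2, BGLU25, list members given without an adjusted p, and genes said so in the text were chosen after their values were seen. Alternatives were DESeq2 1.42.0, RLE and upper-quartile factors, library totals, filters, a minimum log2 fold change of 1, a table without organelle genes, a replicate block, a fit to the compared groups alone, and fits that left out 1 library each.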

Additional observations from a re-analysis of the deposited data

Results flagged for a closer look

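The DPAM-1 difference under NaCl differed from that without NaCl, by edgeR's test of the interaction, in 23 of the genes named. All 23 log2 interactions were below 0. Over all 14229 genes the interaction was called in 71 (0.499%), 70 of them lower. Genes were named partly by their interaction p and their calls, so the 23 and their shared sign were in part selected for. Among stress regulators they were -2.49 for ZAT10, -2.71 for ZAT12, -1.69 for SZF1, -2.55 for ERF104, -1.53 for WRKY40, -1.52 for WRKY33, -2.47 for MYB77, -2.32 for DREB26 and -1.23 for MYC2. Touch, calcium and wall genes had -3.35 (XTH22), -2.66 (XTH23), -1.48 (XTH24), -2.18 (TCH3), -2.01 (CML38) and -2.67 (AT4G27280). The others were AT1G07135 with -2.98, DIC2 with -2.08, AT1G76600 with -1.69, ACS6 with -1.36, MAPKKK14 with -1.55, RTFL12 with -2.50, EXO with -2.22 and JAZ1 with -0.88. DMSO + NaCl replicate 1 stood highest of its group in 12 of the 23 genes: DREB26, RTFL12, EXO, XTH22, MYB77, MAPKKK14, ERF104, AT4G27280, AT1G76600, SZF1, XTH24 and JAZ1. DMSO + NaCl replicate 2 stood highest in 7 and replicate 3 in 4. The part of DMSO + NaCl replicate 1 in these interactions was not tested gene by gene. Without that library the interaction was called in 73 genes, against 71 with it. These totals do not show whether the same genes were called.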

How the results depend on the processing

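Of the 82 genes called under NaCl, 20 stayed called under each alternative other than the fold threshold. All 82 kept their direction under each alternative in which they were tested. That was largely set in advance, since all 25 higher and 56 of the 57 lower genes had groups that did not overlap. Under RLE, upper-quartile and library-total scaling 81, 78 and 76 of the 82 stayed called, with all-gene medians of 0.008, -0.016 and -0.021. CSD2 lost its call with library totals (adjusted p = 0.065), AT1G56680, HSP18.2 and AT1G30760 with library totals or upper-quartile factors (up to 0.091), and AT3G07580 with DESeq2. With DESeq2 the counts were 195 (91 higher, 104 lower) under NaCl and 308 without NaCl. With a log2 fold change of at least 1 they were 34 (5 higher, 29 lower) and 27. Fitting only the groups compared gave 47, 24 of them lower and 38 of them among the 82. In that fit 48.9% of calls were higher, against 30.5% in the fit of all libraries and 46.7% with DESeq2. Leaving out 1 library gave 35 to 144 calls under NaCl (8 to 55 higher, 24 to 89 lower), 76 to 173 without NaCl and 54 to 97 interactions. The cause was not tested.

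The replicate numbers gave no pairing between the groups compared under NaCl: deviations of same-numbered DPAM-1 + NaCl and DMSO + NaCl libraries correlated at -0.048, 0.005 and -0.005. With the replicate block 92 genes were called, 79 of them among the 82, and 164 without NaCl and 74 for the interaction.

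Uncalled genes near 0 changed sign: when 1 library was left out GSTU24 ranged over -0.028 to 0.19, SOS1 over -0.029 to 0.16, JAZ10 over -0.20 to 0.026, P5CS1 over -0.17 to 0.38 and CPD over -0.060 to 0.081. CPD was also at -0.013 with upper-quartile factors, -0.018 with library totals and -1.8e-04 with only the groups compared. Depth limits the lowest genes, since counting error is largest at 30 reads.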
